A study of Equus caballus with 10 samples.

Results

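The comparison described here was the season difference in sperm RNA of low-fertility stallions: spring minus autumn, over all 30559 probe sets of an Affymetrix expression array. The arrays were chosen by their labels, as every array whose fertility class was low. These were 5 of the 10 arrays of the series, 3 labelled spring (stallions 7, 8 and 10) and 2 labelled autumn (stallions 5 and 6). The other 5 arrays came from high-fertility stallions, 3 in spring (stallions 3, 4 and 9) and 2 in autumn (stallions 1 and 2), and were used for the shared estimate of spread and for the test of whether the season difference depended on fertility class. All animals were warmblood males of breeding age housed at an insemination centre, and none of the labels names a treatment or a genetic modification.

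Each array carried the RNA of ejaculated spermatozoa from a different stallion, so season was compared between animals and never within one. The labels give 4 ejaculates per stallion and place their collection in the breeding season, also for the animals labelled autumn. The sources used here do not say whether the ejaculates were pooled, how fertility was scored or in which months semen was taken. The RNA was isolated by TRI Reagent, passed through DNase digestion and a column clean-up, and hybridised as biotinylated cRNA. The 5 low-fertility arrays had titles that went with their season labels. In the high-fertility class, the array of stallion 9 is labelled spring while the letters of its title are those of the autumn arrays, which touches the season difference in low fertility only through the shared spread.

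Mature spermatozoa carry RNA but make almost none: their nucleus is packed with protamines, and the transcripts they hold were mostly made earlier, in spermatocytes and round spermatids. A sperm RNA profile is therefore read as a remnant of spermatogenesis, to which cells that accompany sperm in semen can add. The horse is a long-day breeder, whose reproductive axis is turned up by lengthening days through melatonin and the thyroid hormone and gonadotropin pathways. In stallions, sperm output, testis size and testosterone are lower outside the long days, although sperm are produced all year. In a bulk sample, fewer cells of a type and less RNA per cell cannot be told apart.

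The values were log2 signals between 4, the lowest value of the table, and 14.1. Among the low-fertility arrays, the median signal was 5.49 and 5.24 in autumn (stallions 5 and 6) and 5.29, 5.40 and 5.08 in spring (stallions 7, 8 and 10). Of these 5 arrays, that of stallion 10 had the lowest median and the most probe sets at the lowest value, 2920, against 842 to 2129 on the other 4. Over all probe sets, the autumn arrays correlated at r = 0.898 with each other, at 0.874 to 0.891 with those of stallions 7 and 8, and at 0.84 to 0.848 with that of stallion 10. The 3 pairs of spring arrays correlated at 0.791 to 0.871, so spring animals were no more alike to each other than to autumn animals. Stallions 7 and 8 correlated at 0.858, so both the closest and the least close spring pair included stallion 10. The array of stallion 10 differed by its low signal level and its lower correlation with the autumn arrays. So the table balance, the list medians and the single-gene differences it moved by over 1.5 times are given below with and without it. Among the high-fertility arrays, those of stallions 2 and 9 were also low, with medians of 5.10 and 5.07. They had 2764 and 2775 probe sets at the lowest value, and 1 alternative leaves them out together with stallion 10.

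The arrays carried the transcripts that define sperm. PRM1, which encodes protamine 1, gave signals of 13.14 and 13.29 in autumn and 12.69, 13.31 and 11.58 in spring. TNP1, encoding transition protein 1, gave 11.78 and 11.97 in autumn and 11.63, 12.91 and 9.80 in spring. ODF1, an outer dense fibre protein of the tail, gave 10.93 and 11.28 in autumn and 11.12, 12 and 9.53 in spring. In all 3 genes the seasons overlapped and the lowest value was that of stallion 10. The same held for PRM2, TNP2 and AKAP4. SPEM1, also a sperm marker, had 8.85 and 9.96 in autumn and 8.42, 8.79 and 7.35 in spring, which did not overlap. Its difference was -1.22 (SE 0.625), and -0.80 without stallion 10. Among defining markers of other cells, CD3E of T cells lay between 4.00 and 4.23 over the 5 arrays, EPCAM of epithelia between 4.85 and 5.53, and BSP1, a seminal plasma protein of the accessory glands, between 4.30 and 4.86. PTPRC, the pan-leukocyte antigen CD45, had 6.83 and 6.32 in autumn and 6.52, 6.31 and 5.38 in spring.

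The season difference in low fertility passed at 2 of 30559 probe sets, the threshold being 0.05 for limma's p after Benjamini-Hochberg adjustment across the whole table. Both were lower in spring, which is 0.00654% of those tested, and 0 were higher. At an unadjusted p under 0.05 there were 1022 lower probe sets (3.34%) and 190 higher (0.622%). The median 95% interval of a season difference reached 0.703 log2 units to either side, so only differences well above that size could be told from the spread between animals. With 3 arrays against 2, an exact two-sided permutation test over the 5 low-fertility arrays cannot give a p below 0.1.

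The largest season difference belonged to LOC100061699, an equine gene that the annotation lists under a locus number only and whose function it does not give. Its signal was 11.14 and 11.03 in the autumn stallions 5 and 6, and 5.43, 6.26 and 5.72 in the spring stallions 7, 8 and 10. Both autumn animals were high, all 3 spring animals were low, and the groups did not overlap. The difference was -5.28 (SE 0.27, 95% interval -5.88 to -4.68, adjusted p = 0.000309), a signal 38.9-fold lower in spring on the scale of the deposited log2 values. All 5 high-fertility arrays, of either season, lay between 5.48 and 6.18, which places the autumn low-fertility stallions alone at the high level. The probe set passed the threshold without any 1 of the 10 arrays, with adjusted p from 0.000325 to 0.0201, and was at -5.24 without stallion 10. It did not pass when the fit used only the 5 low-fertility arrays (adjusted p = 0.159) or when stallions 2, 9 and 10 were left out together (adjusted p = 0.171).

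The other probe set past the threshold, 15137738, has no gene in the annotation used here. Its signal was 8.09 and 7.67 in autumn and 4.75, 4.00 and 4.64 in spring, while the high-fertility arrays lay between 4.07 and 5.05. The pattern was that of LOC100061699: both autumn low-fertility stallions were above every other animal. The difference was -3.42 (SE 0.31, adjusted p = 0.0255), or 10.7-fold. The difference lay between -3.63 and -3.19 under the alternatives. The call was lost without any 1 of the arrays other than that of stallion 6 (adjusted p = 0.0553 to 0.273), after centring each array on its median (adjusted p = 0.0626) and after quantile normalisation (adjusted p = 0.0736).

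**Figure D1:**
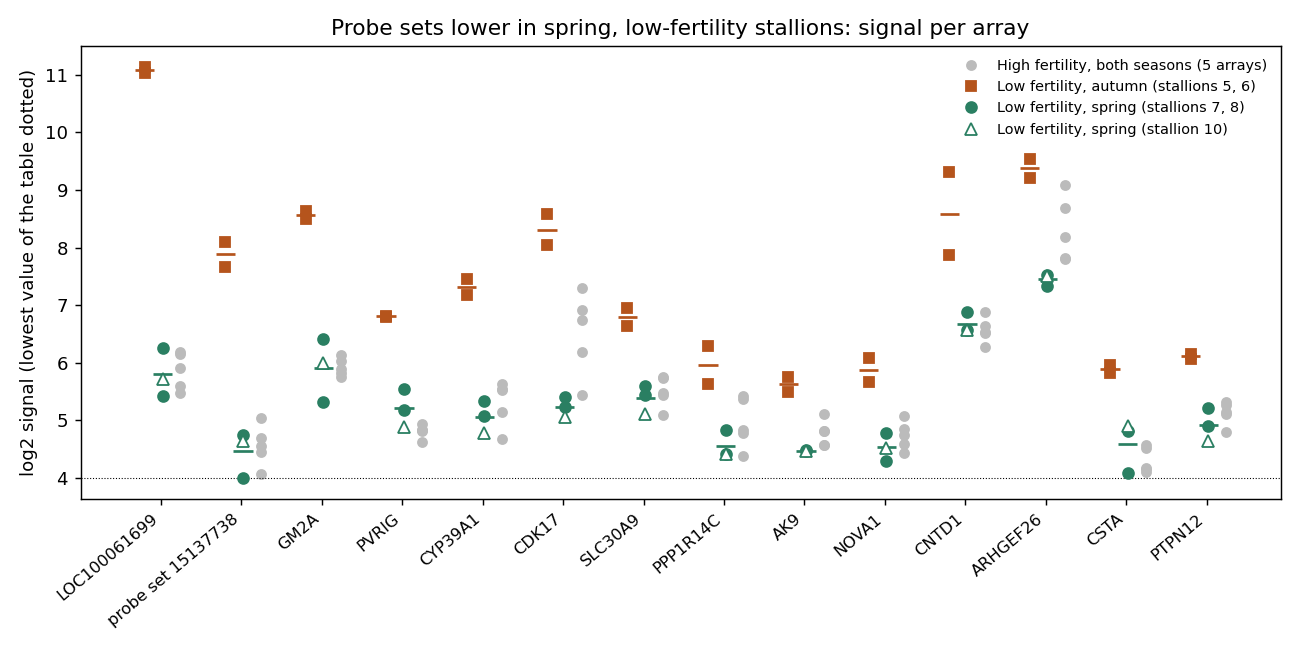
Log2 signal on each of the 10 arrays for probe sets lower in spring in low fertility, with 1 column per probe set. Shown are the 2 past the threshold and the 12 named genes with the smallest p. Each point is 1 stallion. Squares are autumn and green points spring in low fertility, and grey points are all high-fertility arrays. Short lines are season means and the dotted line is the lowest value of the table. In LOC100061699 the autumn low-fertility points stand at 11.14 and 11.03 and all other points at 6.26 or below.

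Among named genes, the next in order of p was GM2A, which encodes the activator protein that presents GM2 ganglioside to lysosomal hexosaminidase. Its signal was 8.63 and 8.50 in autumn and 6.41, 5.32 and 5.99 in spring. The high-fertility arrays lay between 5.76 and 6.13, inside the range of the spring low-fertility animals. The difference was -2.66 (SE 0.30), 6.31-fold, and did not pass over all probe sets (adjusted p = 0.0916). The third smallest adjusted p of the comparison was this one.

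Of the other named genes lower in spring with the smallest p, CDK17, a cyclin-dependent kinase of the PCTAIRE group, had signals of 8.04 and 8.58 in autumn and 5.23, 5.41 and 5.06 in spring, a difference of -3.08 (SE 0.49, adjusted p = 0.472). Here the high-fertility arrays filled the gap, from 5.45 to 7.30. ARHGEF26, a guanine nucleotide exchange factor, had 9.21 and 9.54 in autumn and 7.52, 7.34 and 7.51 in spring, a difference of -1.92 (SE 0.38, adjusted p = 0.842). PTPN12, a tyrosine phosphatase that acts on adhesion proteins, had 6.07 and 6.15 in autumn and 4.91, 5.22 and 4.65 in spring. PPP1R14C, an inhibitor of protein phosphatase 1, had 5.64 and 6.29 in autumn and 4.84, 4.41 and 4.41 in spring. All 4 were chosen among probe sets whose seasons did not overlap, 11.7% of the table in this direction, and none passed the threshold.

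CYP39A1, an oxysterol hydroxylase of bile acid synthesis, had signals of 7.17 and 7.46 in autumn and 5.07, 5.34 and 4.79 in spring, a difference of -2.25 (SE 0.32, adjusted p = 0.268). SLC30A9, a zinc transporter of mitochondria, had 6.64 and 6.95 in autumn and 5.44, 5.60 and 5.11 in spring, a difference of -1.41. AK9, an adenylate kinase, had 5.76 and 5.49 in autumn and 4.48, 4.47 and 4.47 in spring, a difference of -1.15. The spring values of AK9 were within 0.01 of each other and low on the scale.

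CNTD1, a cyclin-like protein needed for meiotic crossing-over in mice, had signals of 7.87 and 9.31 in autumn and 6.88, 6.57 and 6.57 in spring, a difference of -1.92 (SE 0.38, adjusted p = 0.842). The autumn animals differed from each other by more than the spring animals did. NOVA1, an RNA-binding regulator of splicing best known in neurons, had 5.67 and 6.09 in autumn and 4.29, 4.79 and 4.53 in spring. The remaining pair are known from other cell types. PVRIG, an inhibitory receptor of lymphocytes, had 6.79 and 6.82 in autumn and 5.19, 5.55 and 4.89 in spring, a difference of -1.60 (SE 0.23, adjusted p = 0.268). CSTA, a cystatin found in squamous epithelia and in leukocytes, had 5.96 and 5.82 in autumn and 4.08, 4.81 and 4.91 in spring, a difference of -1.29 (SE 0.26, adjusted p = 0.842).

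In all 12 of these genes, GM2A included, both autumn low-fertility arrays lay above all 8 other arrays, a pattern that 1121 probe sets of the whole table showed (3.67%). Both autumn low-fertility arrays lay below all 8 others at 218 probe sets (0.713%). The genes were named for a small p of the low-fertility contrast, so the first count follows in part from that choice. The 12 differences ran from -3.08 to -1.15, and from -2.99 to -1.04 without stallion 10. Only genes whose seasons did not overlap were chosen, so leaving out 1 array could not change a sign. In the high-fertility class, the season difference of the same genes ran from -0.73 to 0.22, negative in 8 of 12.

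Genes with a season mean of at least 7 were also ranked by difference, again only where the seasons did not overlap. The largest were LOC100061699, CDK17, FAM186A, NRG4 and GM2A. FAM186A had signals of 8.12 and 9.26 in autumn and 5.68, 6.04 and 5.46 in spring, a difference of -2.96 (SE 0.76, adjusted p = 0.864). NRG4, a ligand of the ErbB4 receptor, had 8.41 and 8.94 in autumn and 5.85, 6.84 and 4.79 in spring, a difference of -2.85 (SE 0.75, adjusted p = 0.864). In both genes the high-fertility arrays spread widely, from 5.17 to 8.20 and from 5.37 to 7.94. Besides LOC100061699, the lower genes known by a locus number with the smallest p were LOC100061012, with a difference of -1.71 (SE 0.40), and LOC100055178, with -1.03 (SE 0.26). Neither passed.

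No probe set higher in spring passed the threshold, and 190 were higher at an unadjusted p under 0.05. The differences of the 12 named genes with the smallest p were small, from 0.57 to 1.56, with adjusted p from 0.842 to 1. In 7 of the 12 the autumn mean was under 5, close to the lowest value of the table. PLXNA4, a semaphorin co-receptor, had signals of 4.19 and 4.21 in autumn and 4.93, 5.03 and 4.96 in spring, a difference of 0.77 (SE 0.18). GIMAP8, a GTPase of the immunity-associated family, had 6.55 and 6.99 in autumn and 7.74, 7.69 and 7.56 in spring, a difference of 0.89 (SE 0.21). The high-fertility arrays of GIMAP8 lay between 7.26 and 7.63, so that here too the autumn low-fertility stallions were the ones apart from the rest.

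PHRF1, a ubiquitin ligase that binds RNA polymerase II, had signals of 6.44 and 6.74 in autumn and 7.49, 7.69 and 7.28 in spring, a difference of 0.90 (SE 0.25). BRAT1, a partner of BRCA1 and ATM in the response to DNA damage, had 7.37 and 5.64 in autumn and 8.31, 7.77 and 8.11 in spring. Its difference of 1.56 (SE 0.47) was smaller than the gap between its own autumn values. ACTA2, smooth muscle actin, had 5.40 and 5.31 in autumn and 5.89, 6.50 and 6.37 in spring, a difference of 0.90 (SE 0.27). The remaining 7 were DOC2B, TMEM210, MSANTD2, GLRA2, MIR592, NUDT2 and GPRC5C, with differences between 0.57 and 0.87. The higher genes known by a locus number were LOC100061787 with 0.92 (SE 0.23), LOC100068295 with 0.84 (SE 0.22) and LOC100064229 with 1.25 (SE 0.42), and none passed.

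Of these 12 genes, 9 had both autumn low-fertility arrays below all 8 others (0.713% of all probe sets), a count that follows in part from the choice of genes whose seasons did not overlap. In the high-fertility class 4 of the 12 had the same sign. All 12 were chosen for seasons that did not overlap, so leaving out stallion 10 could not change their sign. Among brighter probe sets whose seasons did not overlap, the largest named differences were those of STAC3, an adaptor of muscle calcium channels, and OR4K66, an olfactory receptor gene. STAC3 had signals of 5.74 and 5.52 in autumn and 7.20, 6.14 and 8.76 in spring, a difference of 1.74 (SE 0.60), with adjusted p = 1. OR4K66 had 5.33 and 5.68 in autumn and 7.15, 6.05 and 8.29 in spring, a difference of 1.66 (SE 0.58). In both, stallion 10 was the highest, and without it the differences were 1.04 and 1.1. CCDC34, a coiled-coil protein needed for sperm flagella in mice, had 7.80 and 7.81 in autumn and 8.41, 10.73 and 8.02 in spring. Its difference was 1.25 (SE 0.79), and 0.41 without stallion 8, which had the highest spring value.

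**Figure D2:**
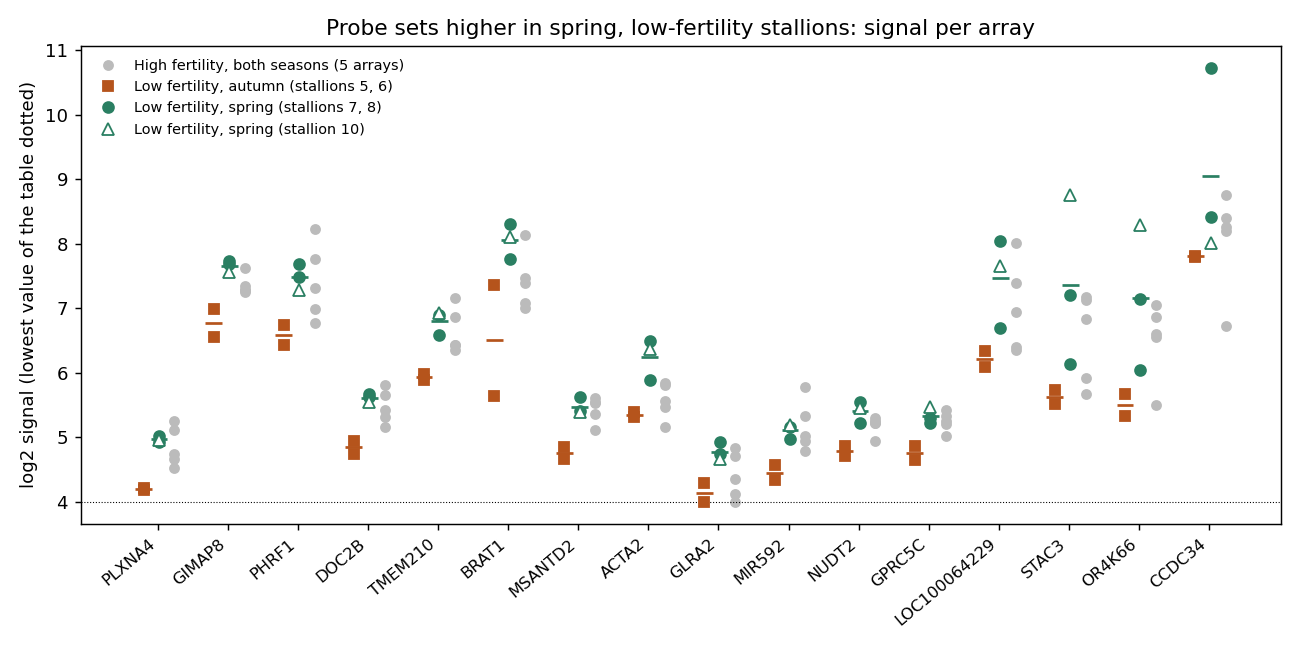
Log2 signal on each of the 10 arrays for named genes that were higher in spring than in autumn in low fertility, drawn as in the plot of lower genes; each point is 1 stallion. No gene shown passed the threshold, and the differences of the 12 with the smallest p are between 0.57 and 1.56.

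Over the whole table the balance was towards lower signals in spring. Of 30559 probe sets, 18220 (59.62%) had a lower mean in spring, 12176 a higher one and 163 no difference, with a median difference of -0.07. The share that was lower grew with brightness, from 56.8% of probe sets with a mean signal under 5 to 68.4% of those at 8 and over. Every spring value lay below every autumn value at 3575 probe sets (11.7%), and above at 1419 (4.64%). With a difference of at least 1 log2 unit as well, 537 were lower and 69 higher, and with at least 2 units, 37 were lower and 1 higher.

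This balance moved with single arrays of both seasons. Without stallion 10, 49.78% of probe sets were lower in spring, the median difference was 0, and the share that was lower lay between 48.3% and 50.3% in every brightness class. The probe sets without overlap were then 4731 lower (15.5%) and 3888 higher (12.7%). Of the probe sets at an unadjusted p under 0.05, 84.32% were lower with all arrays, 65.66% after centring each array on its median, 66.8% after quantile normalisation, 69.91% without stallion 10, 63.06% without stallion 5 and 91.81% without stallion 6. Centring moved the median difference of all probe sets up by 0.11, to 0.04, and left 44.62% of probe sets lower. Without stallion 5, the autumn array with the highest median signal, 45.22% were lower and the median difference was 0.03. Without stallion 6, 67.63% were lower and the median was -0.17. What made the array levels differ was not tested.

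**Figure D3:**
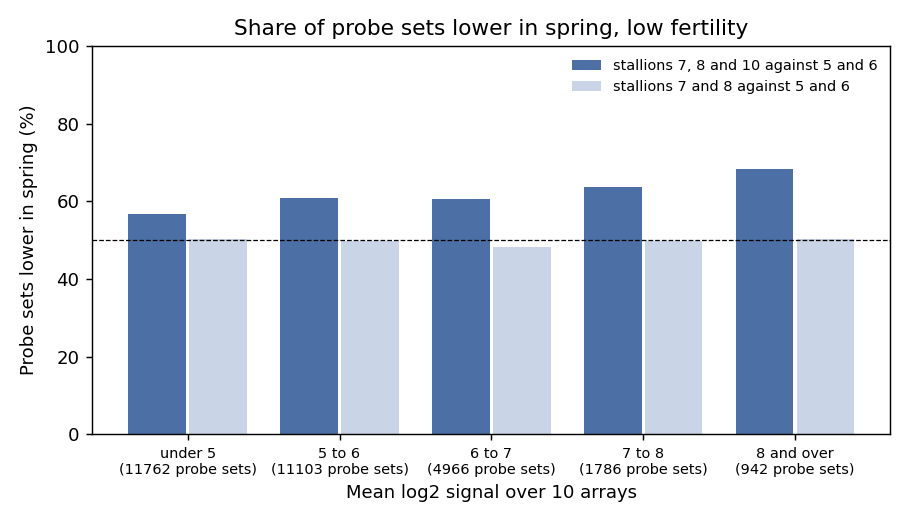
Percentage of probe sets with a lower mean signal in spring than in autumn among low-fertility stallions, by class of mean signal (log2), with all 5 arrays and without the array of stallion 10. With all arrays the share runs from 56.8% to 68.4%; without stallion 10 it stays between 48.3% and 50.3%.

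Genes were further read in 29 lists of sperm, germ cell, housekeeping, seasonal and other cell type genes, of which 1040 genes had a probe set of their own. None of the 1040 passed the threshold, where 0.00654% of all probe sets did. Over all 16661 genes with 1 symbol, 10688 were lower and 5923 higher, the median difference was -0.10, and 13.9% had spring values all below autumn. These are the values a list is to be set beside. Because a list's shift of this size moves with the scaling, each median below is followed by that without stallion 10, for which the median of all genes was -0.02. Medians below 0 were found in 25 of the 29 lists with all 5 arrays, in 13 without stallion 10, in 18 without stallion 5 and in 27 without stallion 6.

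Transcripts of late spermatids, the cells that reshape into sperm, were lower in 42 of 62 genes, with a median of -0.20 that turned to 0.17 without stallion 10. The 3 named members, chosen for the smallest p of their list, had both autumn animals above all others. This pattern, shown by 3.67% of all probe sets, follows in part from that choice. SPATS1, expressed in spermatogenesis, had signals of 9.77 and 10.47 in autumn and 8.03, 7.74 and 6.98 in spring, a difference of -2.54 (SE 0.62, adjusted p = 0.842). TEX9, a testis-expressed gene, had 7.80 and 8.45 in autumn and 6.44, 6.82 and 6.22 in spring, a difference of -1.63 (SE 0.34, adjusted p = 0.842). SPATC1, a centrosomal protein of sperm, had 8.34 and 9.48 in autumn and 7.88, 7.84 and 6.53 in spring, a difference of -1.49 (SE 0.55). Without stallion 10 the 3 differences were -2.23, -1.50 and -1.05. Their seasons did not overlap, so leaving out 1 array could not change their sign.

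Sperm chromatin genes were lower in 11 of 15, with a median of -0.18 that turned to 0.07 without stallion 10. H2BC1, the testis histone H2B, had signals of 7.48 and 7.38 in autumn and 6.77, 5.49 and 6.49 in spring, and HMGB4, a chromatin protein of spermatids in mice, had 12.25 and 12.24 in autumn and 10.83, 12.54 and 10.33 in spring. Of this pair only H2BC1 did not overlap. SPEM1, of the same list and given above, did not overlap either. Genes of the outer dense fibres and fibrous sheath were lower in 13 of 19 (median -0.13), but in 3 of 19 without stallion 10 (median 0.28). None of these 19 had groups that did not overlap, against 13.9% of all genes in the lower and 3.75% in the higher direction.

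Axoneme genes, which build the motor of the flagellum, were lower in 34 of 53, with a median of -0.14 and of -0.06 without stallion 10. Spring values were all below autumn at 11 of 53 (20.8%), against 13.9% of all genes. SPAG16, a protein of the central pair of microtubules, had signals of 7.47 and 7.76 in autumn and 6.21, 6.70 and 5.47 in spring, a difference of -1.49 (SE 0.45, adjusted p = 0.97). SPAG6, another central pair protein, had 7.73 and 8.27 in autumn and 7.36, 6.76 and 6.35 in spring, a difference of -1.18 (SE 0.36). CFAP52, an inner microtubule protein, had 6.34 and 6.88 in autumn and 5.95, 5.71 and 5.58 in spring. In all 3 genes both autumn low-fertility animals were above all others, as at 3.67% of all probe sets. The 3 were named for the smallest p of their list, which favours this pattern. After centring, 29 of 53 axoneme genes were lower.

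KCNU1, the SLO3 potassium channel that sets the sperm membrane potential, had signals of 6.74 and 7.46 in autumn and 5.41, 5.80 and 5.08 in spring, a difference of -1.67 (SE 0.50, adjusted p = 0.97). Its list of ion channels and cAMP signalling had 15 of 32 genes lower and a median of 0.06, and of 0.07 without stallion 10. TSSK6, a spermatid kinase needed for chromatin condensation in mice, had 10.41 and 10.94 in autumn and 10.21, 10.09 and 8.94 in spring, a difference of -0.93 (SE 0.43), and of -0.53 without stallion 10. FAM170A, of the acrosome list, had 5 and 5.39 in autumn and 5.79, 5.79 and 5.72 in spring, a difference of 0.57 (SE 0.22). Lower members were 21 of 36 for the acrosome (median -0.12, and 0.10 without stallion 10), 16 of 22 for the midpiece (-0.18 and 0.11), 13 of 21 for kinases and phosphatases (-0.13 and 0.09) and 18 of 37 for the ubiquitin system of spermatids (0.02 and 0.24).

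Sperm glycolysis genes, which fuel motility along the tail, were lower in 21 of 23, with a median of -0.28, and in 15 of 23 without stallion 10, with a median of -0.18. After centring the median was -0.17 and after quantile normalisation -0.15, so the median was negative under each scaling. Without single low-fertility arrays it ran from -0.39 to -0.15. The groups did not overlap, in the lower direction, at 8 of 23 (34.8%), against 13.9% of all genes. The single members were close to their spread: PGAM1, phosphoglycerate mutase 1, had signals of 5.05 and 5.48 in autumn and 4.64, 4.95 and 4.64 in spring, a difference of -0.52 (SE 0.24, adjusted p = 1). PGK2, the phosphoglycerate kinase of male germ cells, went the other way, with 4.84 and 4.84 in autumn and 5.97, 5.85 and 4.88 in spring. The means of the list over its 23 genes were 6.82 and 6.77 in autumn and 6.62, 6.82 and 6.23 in spring, and those overlap.

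Genes of meiotic germ cells were lower in 31 of 42, with a median of -0.26, and of -0.10 without stallion 10. The direction of this median also held after centring (-0.15) and quantile normalisation (-0.14) and without single low-fertility arrays (-0.34 to -0.10). Spring values were all below autumn at 11 of 42 (26.2%), against 13.9% of all genes. HORMAD2, a protein of unsynapsed chromosome axes, had signals of 8.55 and 9.03 in autumn and 6.91, 7.02 and 6.20 in spring, a difference of -2.08 (SE 0.55, adjusted p = 0.864). MEIOB, a single-strand DNA binding protein of meiotic recombination, had 6.45 and 7.09 in autumn and 5.67, 5.24 and 4.85 in spring, a difference of -1.52 (SE 0.41, adjusted p = 0.864). In both, the autumn low-fertility animals were highest, a pattern favoured by naming members for a small p. SYCP3, a component of chromosome axes, had 6.03 and 5.60 in autumn and 6.29, 5.70 and 6.05 in spring, which overlap. Spermatogonial genes were lower in 17 of 25 (median -0.05, and 0.04 without stallion 10).

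**Figure D4:**
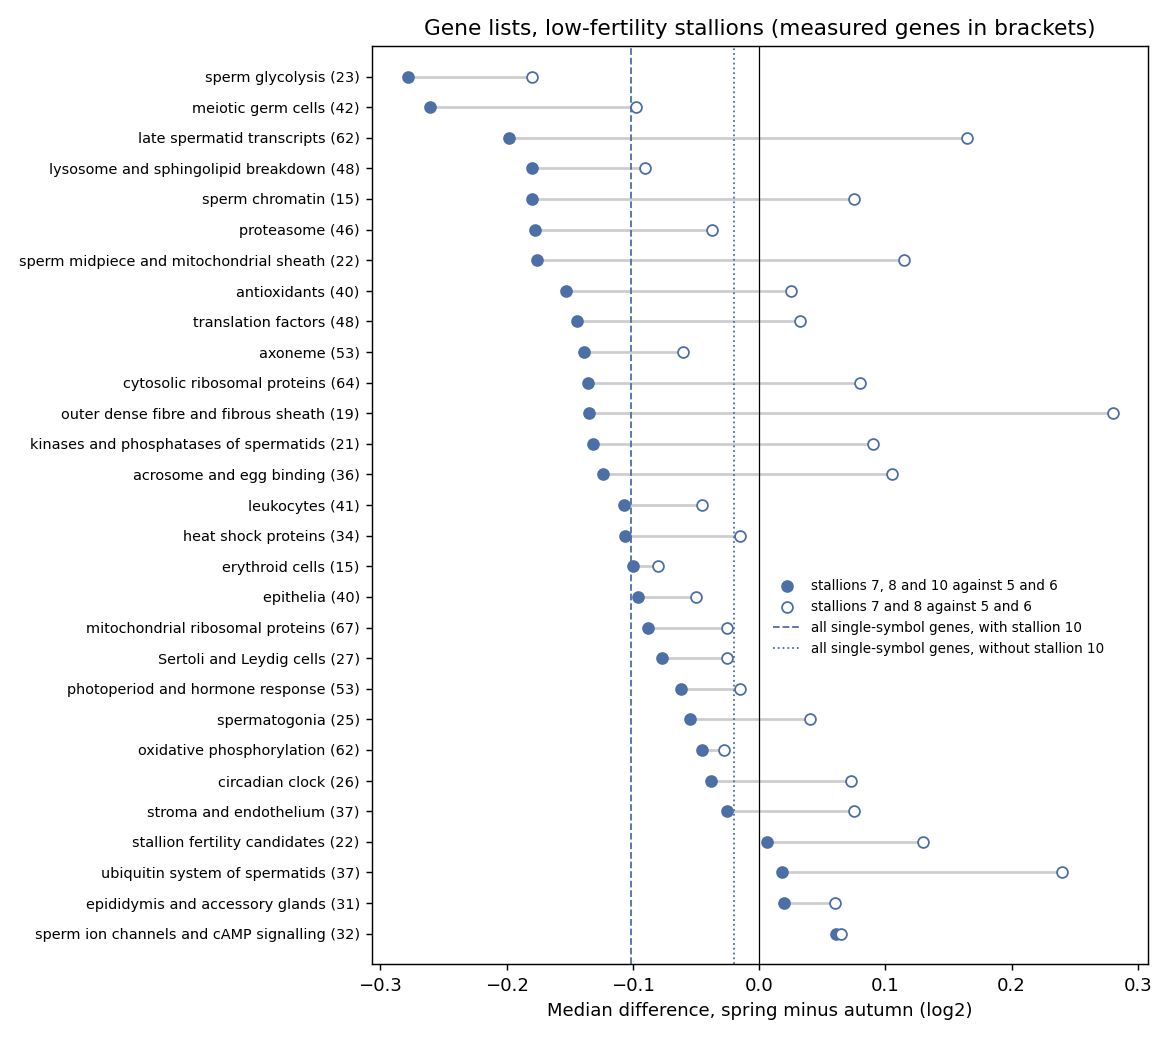
Median season difference (spring minus autumn, log2 signal) of each gene list in low fertility, with all 5 arrays and without the array of stallion 10; the dashed lines mark the median over all genes with 1 symbol, -0.10 and -0.02. Sperm glycolysis stands lowest with all arrays, at -0.28, and several sperm lists cross to positive medians without stallion 10.

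Lists of protein synthesis and energy supply were near the median of all genes. Cytosolic ribosomal proteins were lower in 44 of 64 (median -0.14, and 0.08 without stallion 10), translation factors in 34 of 48 (-0.14 and 0.03), mitochondrial ribosomal proteins in 40 of 67 (-0.09 and -0.02) and oxidative phosphorylation genes in 38 of 62 (-0.05 and -0.03). NDUFA10, a subunit of respiratory complex I, had signals of 7.17 and 7.39 in autumn and 6.55, 5.78 and 5.85 in spring, a difference of -1.22 (SE 0.36, adjusted p = 0.97). EIF2A, an initiation factor, had 6.12 and 6.53 in autumn and 5.29, 5.43 and 5.40 in spring, a difference of -0.95 (SE 0.32). RPS10 had 2 probe sets, which gave -0.71 (SE 0.36) and -0.96 (SE 0.77). Ribosomal protein genes have many near-identical copies in mammalian genomes, so their probe sets can share signal.

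Proteasome genes were lower in 31 of 46 (median -0.18, and -0.04 without stallion 10), heat shock genes in 21 of 34 (-0.11 and -0.02) and antioxidant genes in 26 of 40 (-0.15 and 0.02). HSPD1, the mitochondrial chaperonin, had signals of 5.71 and 6.61 in autumn and 4.87, 5.40 and 4.80 in spring, a difference of -1.14 (SE 0.30, adjusted p = 0.864). HSF5, a heat shock factor of spermatocytes, had 7.30 and 8.24 in autumn and 6.33, 5.72 and 5.57 in spring, a difference of -1.90 (SE 0.61). In both, which were named for a small p, the seasons did not overlap, as at 11.7% of all probe sets in this direction. GPX5, a glutathione peroxidase of the epididymis, had 4.40 and 4.28 in autumn and 5.05, 4.83 and 5.18 in spring, higher in spring by 0.68 (SE 0.26) at a low signal.

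The lists closest to the season itself gave no member past the threshold. Genes of the photoperiod and hormone response were lower in 36 of 53, with a median of -0.06, against -0.10 for all genes, and of -0.02 without stallion 10. SLC16A10, a transporter of aromatic amino acids and thyroid hormones, had signals of 6.26 and 6.58 in autumn and 4.81, 5.11 and 4.00 in spring, a difference of -1.78 (SE 0.48, adjusted p = 0.864). DIO3, the deiodinase that inactivates thyroid hormone, had 5.47 and 5.87 in autumn and 5.11, 4.61 and 4.00 in spring, a difference of -1.10 (SE 0.37). CYP19A1, the aromatase that makes oestrogens and is abundant in the stallion testis, had 6.44 and 7.31 in autumn and 6.12, 5.71 and 5.45 in spring, a difference of -1.12 (SE 0.41). All 3 were named for the smallest p of their list. Their seasons did not overlap, as at 11.7% of all probe sets in this direction, and stallion 10 was lowest in each. Without it the differences were -1.46, -0.81 and -0.96.

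Circadian clock genes were lower in 15 of 26 (median -0.04, and 0.07 without stallion 10). CRY1, a repressor of the clock, had signals of 5.62 and 6.11 in autumn and 5.57, 5.41 and 4.59 in spring, a difference of -0.68 (SE 0.32), and of -0.38 without stallion 10. CSNK1D, the kinase that times PER protein decay, had 7.69 and 8.05 in autumn and 7.19, 7.39 and 6.44 in spring, a difference of -0.86 (SE 0.44). Genes of stallion fertility studies were lower in 11 of 22 (0.01 and 0.13).

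Lysosome and sphingolipid genes, the list that holds GM2A, were lower in 38 of 48, with a median of -0.18, and of -0.09 without stallion 10. The median was -0.07 after centring and after quantile normalisation and ran from -0.31 to -0.03 without single low-fertility arrays. Spring values were all below autumn at 12 of 48 (25%), against 13.9% of all genes. Apart from GM2A the named members were close to their spread. NPC1, a cholesterol exporter of lysosomes, had signals of 4.82 and 4.52 in autumn and 4.04, 4.60 and 4.00 in spring, and CTSL, the protease cathepsin L, had 6.14 and 5.25 in autumn and 6.30, 6.28 and 6.24 in spring.

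Genes of leukocytes were lower in 26 of 41, with a median of -0.11, near that of all genes, and of -0.04 without stallion 10. Their mean level over the 41 genes was 5.64 and 5.30 in autumn and 5.38, 5.45 and 5.13 in spring, which overlap. S100A9, a calcium-binding protein of neutrophils and monocytes, had signals of 8.24 and 8.19 in autumn and 4.93, 6.28 and 6.63 in spring, a difference of -2.27 (SE 0.53, adjusted p = 0.842). The high-fertility arrays lay between 4.78 and 6.23. CSF3R, a receptor that defines neutrophils, had 6.01 and 5.44 in autumn and 5.75, 5.57 and 5.96 in spring, with no such gap. TYROBP, a signalling adaptor of myeloid cells, had 4.98 and 4.36 in autumn and 5.40, 5.21 and 5 in spring, a difference of 0.53 (SE 0.26). The probe sets of S100A9, LOC100061699 and LOC100061012 carry close numbers, 15091406, 15091409 and 15091437. In each, both autumn low-fertility arrays lay above all others, as at 3.67% of all probe sets, a pattern favoured by naming genes for a small p. Whether their signals are related was not tested. The part of leukocytes in the values of S100A9, PVRIG, CSTA and LOC100061699 was not tested.

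Epithelial genes were lower in 26 of 40 (median -0.10, and -0.05 without stallion 10), with means of 5.57 and 5.38 in autumn and 5.36, 5.41 and 5.27 in spring. KRT17, a keratin of stressed and basal epithelia, had signals of 5.51 and 5 in autumn and 4.00, 4.39 and 4.78 in spring. Genes of stroma and endothelium were lower in 21 of 37 (-0.03 and 0.07), with means of 5.63 and 5.38 in autumn and 5.56, 5.60 and 5.43 in spring. PECAM1, an adhesion molecule of endothelium and platelets, had 5.32 and 5.66 in autumn and 6.09, 7.54 and 6.09 in spring, a difference of 1.08 (SE 0.44, adjusted p = 1). Lower members were 15 of 31 for the epididymis and accessory glands (0.02 and 0.06), 11 of 15 for erythroid cells (-0.10 and -0.08) and 18 of 27 for Sertoli and Leydig cells (-0.08 and -0.03). In each of these lists the range of the autumn means overlapped that of the spring means.

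Whether the season difference depended on the fertility class was tested with an interaction term, the season difference in low fertility minus that in high fertility. It passed at 1 of 30559 probe sets (0.00327%), that of LOC100061699. Its season difference was -5.28 in low and -0.50 in high fertility, and the difference between them was -4.78 (adjusted p = 0.0148). The size held while the call did not: the difference lay between -5.01 and -4.59 under the alternatives, but without stallion 1, 2, 3, 4, 5, 9 or 10 the adjusted p lay between 0.0683 and 0.247, and without moderation it was 0.148. Probe set 15137738 had an interaction of -3.02 and GM2A of -2.88, each with adjusted p = 0.564. At an unadjusted p under 0.05 the interaction was negative at 703 probe sets and positive at 455. In high fertility 0 probe sets passed for season, with 1269 at an unadjusted p under 0.05, 820 lower and 449 higher.

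None of the 12 lower or 12 higher named genes with the smallest p passed for the interaction after adjustment, and since the low-fertility contrast that chose them is part of the interaction, their unadjusted values are not read. Both autumn high-fertility arrays lay above all 8 others at 592 probe sets (1.94%) and below them at 399 (1.31%), against 3.67% and 0.713% for the autumn low-fertility pair. The array levels of the pairs differed, with median signals of 5.44 and 5.10 in high fertility and 5.49 and 5.24 in low fertility. The part of the array levels in these counts was not tested. SPATS1, also named for a small p in low fertility, had a season difference of -2.54 there and of 1.1 (SE 0.62) in high fertility. Its high-fertility seasons overlapped, with 7.78 and 7.35 in autumn and 8.94, 9.70 and 7.34 in spring. The interaction of -3.63 did not pass (adjusted p = 1). Apart from LOC100061699, no gene of the table had a season difference that differed between the classes past the threshold.

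**Figure D5:**
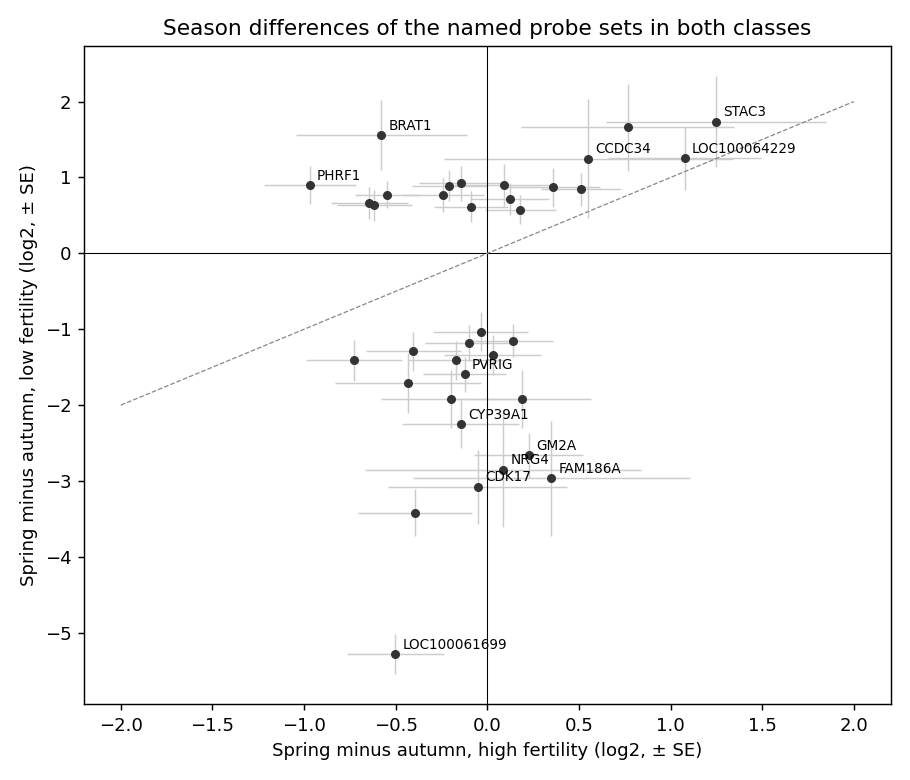
Season difference (spring minus autumn, log2 signal) in low fertility against that in high fertility, 1 point per probe set with its SE in both directions. Drawn are the named probe sets other than those named only as list members or markers. The dashed line marks equal differences. LOC100061699 lies lowest, at -5.28 in low and -0.50 in high fertility, and STAC3 lies near the dashed line.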

How the data were processed

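Sperm RNA of 10 stallions was measured on Affymetrix arrays, 1 array per animal. The deposited table holds log2 signals per probe set; per the submitters' processing notes GCOS 1.1.1 and Affymetrix Expression Console 1.1 were used, while background correction, summarisation and normalisation are not stated there. Arrays have no read depth, so the number of animals limits the precision, and p-values measure the spread between animals with their handling.

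Groups were taken from the season and fertility labels. A mean per season and fertility group was fitted over all 10 arrays with limma 3.58.1 in R 4.3.3 (6 residual and 2.96 prior degrees of freedom) and moderated with eBayes. P-values were adjusted by Benjamini-Hochberg over all 30559 probe sets, with no filter. The fit was tested on simulated data.

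Of the probe sets, 16789 had 1 gene symbol in GEO's platform annotation, 343 several and 13427 none; only the first kind was named, with the brightest probe set per gene in the lists. Control probe sets were not set apart. Named were all probe sets past the threshold and up to 3 members per list by p. The others were taken per direction, only among genes whose seasons did not overlap. They were up to 12 genes with the smallest p, up to 3 symbols starting with LOC, and up to 5 with the largest difference at a season mean of 7 or more. Defining markers and the second probe set of RPS10 were added to these. The 29 lists and the comparison itself were chosen with earlier results of these data known, so they are no independent evidence. Fold changes understate differences near the lowest value, 4.

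Alternatives were the 5 low-fertility arrays alone, each array left out, stallions 2, 9 and 10 left out, quantile normalisation, median centring, filters on low values, no moderation, trended and robust moderation, array weights, stallion 9 as autumn, linear signals and the median over a gene's probe sets.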

Additional observations from a re-analysis of the deposited data

Results flagged for a closer look

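The season difference of LOC100061699 was -5.28 in low fertility and -0.50 in high fertility, and the test of the difference between the classes gave -4.78 (limma, adjusted p = 0.0148). It is listed here because that test passed over all probe sets. The groups hold 2 or 3 arrays each, too few to test single arrays for standing apart.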

How the results depend on the processing

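The count of 2 probe sets past the threshold in low fertility was 0 in the fit of the 5 low-fertility arrays alone and 0 without stallions 2, 9 and 10. It was 1 after centring, quantile normalisation and either filter on low values, 3 without moderation, and 2 with trended and robust moderation, with array weights and with stallion 9 counted as autumn. Leaving out single arrays gave 1 to 29, with 29 only without stallion 6. The interaction count of 1 ran from 0 to 15 over left-out arrays (15 without stallion 6) and was 0 without stallions 2, 9 and 10. The high-fertility count of 0 became 1 without moderation and ran from 0 to 1 over left-out arrays, 1 without stallion 1. Over the alternatives with a test, LOC100061699 lost its season call in 2 of 20 and its interaction call in 9 of 19, and probe set 15137738 lost its call in 14 of 18, with no change of direction. The other named genes had no call to lose. Of 609 list medians, 4 moved by more than the larger within-season standard deviation of the list's mean signal between animals. A smaller move can still change a sign. Medians below 0 were found in 25 of 29 lists with all 5 arrays and in 13 without stallion 10. The cause of these changes was not tested, beyond fewer arrays or probe sets in the fits that leave some out. No paired analysis was possible because each stallion has its own number and 1 array. The comparison rests on 3 animals against 2, and season and animal cannot be told apart within the class; near the lowest value of 4 a difference cannot be read.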
